A study of Homo sapiens with 160 samples.

Results

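Acute phase and epithelial defence genes are described here in BEAS-2B, a human bronchial epithelial line that grows without limit in culture, as 10 named genes of the 29273 in the deposited table. They are SAA1, SAA2 and SAA4 (serum amyloid A proteins), LCN2, DMBT1, C3, CFB, SERPINA3, SLPI and TLR2, taken by their gene symbols and picked as genes that a glucocorticoid raises rather than lowers. Their direction under mometasone is therefore a description and not independent evidence. Of the 10, 7 reached 1 in at least 5 libraries and were tested. The other 3, SAA4, SLPI and TLR2, were not tested. SAA2 reached that level mainly in libraries treated with mometasone, and LCN2 and SERPINA3 mainly in those with both mometasone and indacaterol. Counts over the tested genes, and p-values of SAA2, LCN2 and SERPINA3 for those libraries, are therefore a description and support nothing further.

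Confluent cells were held overnight without serum and then received vehicle or 7 treatments made from 3 agents. Mometasone, a glucocorticoid, was given at 100 nM, indacaterol, a long-acting β2-agonist that raises cyclic AMP, at 100 nM, and carbachol, which activates muscarinic acetylcholine receptors, at 10 µM. The agents were used singly, in every pair and all together, and RNA was sequenced at 1, 2, 6 and 18 h. Of 160 samples 150 were used, in 24 groups of 5 libraries, 6 groups of 4 and 2 groups of 3 (mometasone, and all 3 agents, at 18 h).

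Acute phase proteins are secreted mainly by the liver during inflammation, but airway epithelium makes several of them locally. Serum amyloid A proteins bind lipids and attract leukocytes, lipocalin-2 (LCN2) withholds iron from bacteria, DMBT1 is a scavenger receptor cysteine-rich protein that binds bacteria, and SERPINA3 inhibits neutrophil cathepsin G. Cytokines acting through NF-kB, STAT3 and C/EBP factors drive many of these genes, and glucocorticoids, which repress much inflammatory transcription, spare or enhance several of them.

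Sequence bears on how the values can be read. SAA1 (chr11:18266174-18269977, plus strand) and SAA2 (chr11:18239223-18248643, minus strand; GRCh38, GENCODE 29) have coding sequences of 369 bases that differ at 11 bases, with an identical run of 186 bases. How reads that fit both genes were divided is not given in the sources used here, so the split between SAA1 and SAA2 is uncertain. The stretch that holds 10 of the 11 differences is shown for the first coding transcript of each gene, with the differing bases in capitals.
SAA1, coding bases 204 to 323: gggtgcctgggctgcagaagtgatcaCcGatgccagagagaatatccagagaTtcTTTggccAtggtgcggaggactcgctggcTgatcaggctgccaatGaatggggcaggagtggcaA
SAA2, coding bases 204 to 323: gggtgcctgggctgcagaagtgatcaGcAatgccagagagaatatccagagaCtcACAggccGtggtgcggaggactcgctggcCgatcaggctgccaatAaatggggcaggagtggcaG

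RefSeq's promoter table (GRCh38.p14) held 6 of the 10 genes, SAA4, LCN2, DMBT1, CFB, SERPINA3 and TLR2. LCN2, DMBT1 and SERPINA3 were highest with mometasone and indacaterol together, and of these DMBT1 is shown for the size of its change and SERPINA3 for its motif matches. The DMBT1 stretch is chr10:122560504-122560664 and the SERPINA3 stretch is chr14:94612141-94612376, both on the plus strand and ending at the base before the gene's start in GENCODE 29. In capitals is a match to the C/EBP motif TTNNGNAA (either strand) in each promoter. SERPINA3 also has in capitals a pair of overlapping matches to AGAACA, 1 arm of a glucocorticoid response element and not the whole.
DMBT1 promoter: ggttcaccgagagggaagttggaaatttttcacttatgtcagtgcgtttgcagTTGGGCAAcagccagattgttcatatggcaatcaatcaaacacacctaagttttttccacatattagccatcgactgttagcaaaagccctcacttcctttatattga
SERPINA3 promoter: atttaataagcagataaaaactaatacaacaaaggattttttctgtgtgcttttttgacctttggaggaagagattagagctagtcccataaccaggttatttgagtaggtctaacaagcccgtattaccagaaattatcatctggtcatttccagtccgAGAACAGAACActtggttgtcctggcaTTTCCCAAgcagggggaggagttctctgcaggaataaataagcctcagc
Over 35116 promoters in the table, 36.8% hold TTNNGNAA and 14.8% hold AGAACA on either strand. The longer glucocorticoid element core ACANNNTGT, held by 5.37% of promoters, was found in CFB only and not in SERPINA3. CFB also had 1 AGAACA and 1 STAT motif TTCNNNGAA (7.66%). LCN2 had 1 C/EBP match and SAA4 had 6. The core TGACG of the cyclic AMP response element (24.6%) and the NF-kB motif (5.68%) were found in none of the 6 promoters, and TLR2 had no match to any of the 6 motifs. These matches are letters in a window and say nothing of binding.

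Values are the authors' normalised expression values, which the file calls TPM, although its columns sum to 847289 to 1498421, so levels are not compared between genes, apart from the ratio of SAA1 to SAA2. Read depth is not recorded, and a value of 0 is reported as listed at 0. Libraries had 12521 to 13239 genes at 1 or more and 5.88% to 28.3% of their summed signal in mitochondrial genes, with 6 libraries over 20%. Whether replicates were separate cultures is not in the labels, so p-values measure only the spread between these libraries. Bulk RNA cannot tell a change per cell from a change in the number of cells. Of 10 epithelial markers, 6 had a mean of at least 1, among them KRT8 (303) and KRT18 (367), while EPCAM (0.26), KRT19 (0.52) and TP63 (0.16) were near 0. Airway secretory markers were near 0 (0 of 4 with a mean of at least 1, summed level 0 to 1.06), as were hepatocyte markers (0 of 3, 0 to 2.69), and CD3E of T cells had a mean of 0.00053. Leukocyte markers summed to 10.3 to 29 (1 of 3, CD68), and fibroblast markers to 273 to 890 (2 of 3, chiefly COL1A1 at 629).

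Differences below are log2 changes of value + 1 from 1 limma fit over 14827 genes, with Benjamini-Hochberg adjustment per comparison and time, and genes with an adjusted p below 0.05 are termed called. This scale understates changes of low genes. The fit did not pair replicates, and results with replicate number as a block are named as such. Comparisons that use the same vehicle libraries are not independent of each other, and their values are given side by side only. With mometasone against vehicle, 0, 1, 3 and 2 of the 7 tested genes were called higher at 1, 2, 6 and 18 h, beside 0.418%, 1.50%, 5.37% and 4.14% of all tested genes called higher. With indacaterol against vehicle the counts were 1, 1, 1 and 0, beside 1.30%, 2.99%, 0.937% and 0.135%, and in every case the gene was DMBT1. With both agents against vehicle they were 1, 3, 5 and 4, beside 2.10%, 5.40%, 10.1% and 6.09%. None of the 7 was called lower against vehicle in these comparisons. Of all tested genes, 0.0540%, 0.486%, 4.24% and 4.96% were called lower with mometasone at 1, 2, 6 and 18 h. The shares were 0.101%, 0.911%, 0.803% and 0.0674% with indacaterol, and 0.344%, 2.25%, 7.62% and 6.89% with both. The plot of changes over time shows that the genes differed in which agent they followed and when.

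**Figure D1:**
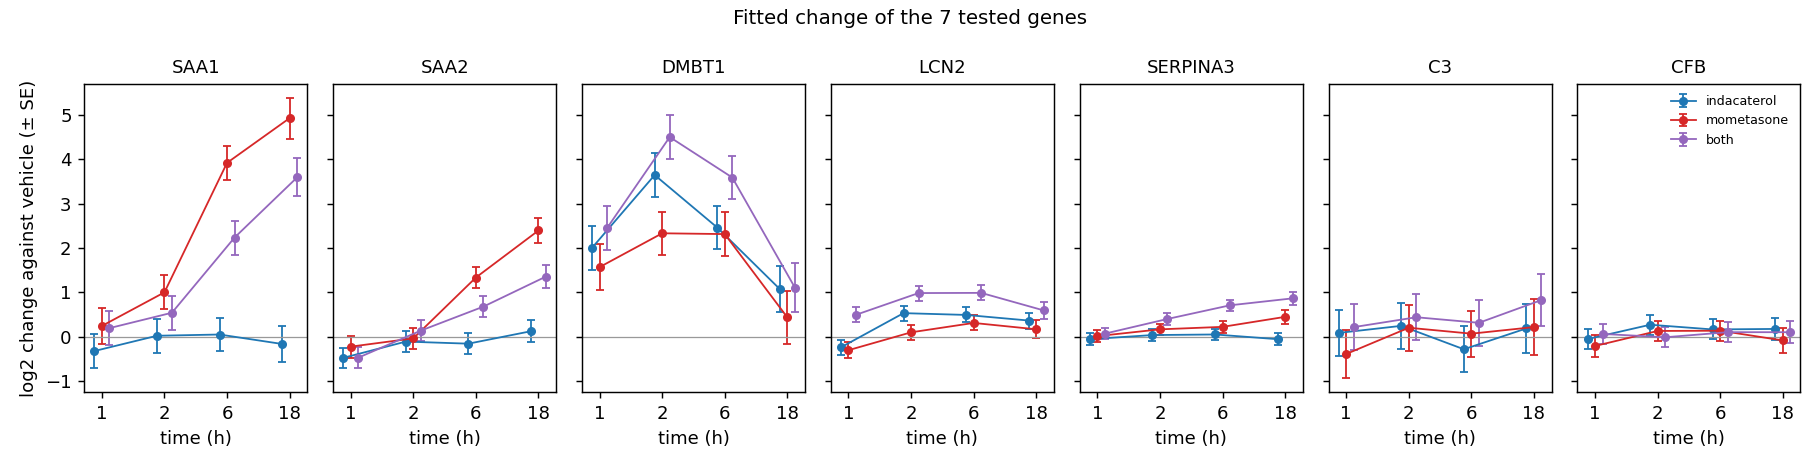
Log2 change of value + 1 against vehicle (vertical axis, with standard error) at 1, 2, 6 and 18 h for the 7 tested genes under mometasone, indacaterol and both. SAA1 rose with mometasone up to 4.93 at 18 h and was lower when indacaterol was present, whereas DMBT1 was highest with both agents at 2 h (4.50) and SERPINA3 and LCN2 were low and highest with both.

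SAA1, the main inducible serum amyloid A gene, rose with mometasone at 6 and 18 h and did not rise with indacaterol. At 6 h the vehicle libraries read 4.87, 2.19, 1.77, 6.03 and 7.09. The mometasone libraries read 68.6, 94.5, 72.0, 52.7 and 88.4. Every mometasone library was above every vehicle library, and the groups did not overlap. The difference was 3.92 ± 0.38 (SE) on the log2 scale, 15.1-fold (limma adjusted p = 7.7e-16). At 18 h vehicle stood at 3.49 ± 2.32 (SD, n = 4) and the 3 mometasone libraries at 144, 103 and 121. That was 4.93 ± 0.46 on the log2 scale, or 30.4-fold (adjusted p = 1.1e-16). Earlier the difference was smaller, with 0.24 at 1 h (adjusted p = 0.993) and 1.00 at 2 h, where vehicle spanned 1.49 to 9.29 and mometasone 4.79 to 15.7. The 2 h difference missed the threshold (adjusted p = 0.310) but passed when replicate number was kept as a block (1.00 ± 0.23, adjusted p = 9.5e-04). The mometasone effect was 4.69 ± 0.61 larger at 18 h than at 1 h (adjusted p = 2.1e-09), in a contrast that called 1.50% of all genes in that direction. Indacaterol alone left SAA1 between -0.33 and 0.05 of vehicle at the 4 times, with an adjusted p of 1 throughout.

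With indacaterol added to mometasone, SAA1 still rose above vehicle but reached a lower level. At 6 h mometasone with indacaterol read 23.4, 22.6, 19.0, 20.3 and 26.6, above all vehicle and below all mometasone libraries. Against vehicle the change was 2.23 ± 0.38, or 4.70-fold (adjusted p = 1.3e-06). Against mometasone alone SAA1 fell by 1.69 ± 0.38 on the log2 scale, 3.22-fold lower (adjusted p = 0.00164). It was the 1 gene of the 7 called lower there, beside 1.52% of all genes, and the call was lost without replicate 2 (adjusted p = 0.0586). In this same comparison of both agents with mometasone, 1, 2, 2 and 0 of the 7 were called higher at 1, 2, 6 and 18 h, beside 1.32%, 3.66%, 1.62% and 0.121%.

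The lower SAA1 level with indacaterol was also seen when carbachol was present in both groups. At 6 h mometasone with carbachol read 61.7, 85.5, 71.1, 71.8 and 71.9 and all 3 agents read 31.8, 31.5, 26.3, 22.9 and 24.9. No library of the first group was as low as any of the second. The fall was -1.37 ± 0.38 (adjusted p = 0.0193, 2.59-fold lower), and it missed the threshold without replicate 1 (0.0548), 2 (0.188) or 4 (0.146) or with a pseudocount of 0.1 (0.0893). At 6 h, pooled over carbachol, the 10 libraries with mometasone and no indacaterol spanned 52.7 to 94.5 (median 71.9) and the 10 with both spanned 19.0 to 31.8 (median 24.2), against 1.77 to 8 in the 20 without mometasone. These 3 ranges did not overlap.

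At 18 h the 3 ranges were again separate. The 18 libraries without mometasone spanned 0.68 to 6.57, the 7 with mometasone and no indacaterol 103 to 224 (median 127.0), and the 7 with both 31.5 to 90.4 (median 48.4). The difference between both agents and mometasone alone was -1.34 ± 0.46 and missed the threshold (adjusted p = 0.529), in a comparison that called 0.175% of all genes. With carbachol in both groups it was -1.37 ± 0.46 (adjusted p = 0.553), and with replicate number as a block -1.37 ± 0.28 (adjusted p = 7.1e-04). A direct test of whether the effect of the combination differed from the sum of the single effects gave -1.73 ± 0.54 at 6 h (adjusted p = 0.445), which passed with each time fitted alone (0.0237). With all times in 1 fit, none of the 7 genes passed this interaction at any time, where 0.0742%, 0.405%, 0.216% and 0.0674% of all genes were called by limma at 1, 2, 6 and 18 h. At an unadjusted p below 0.05 the counts were 1, 1, 2 and 2. The share of all genes at that cut was not computed, so nothing is drawn from these counts. With carbachol in all 4 groups the SAA1 interaction at 18 h was -1.61 (adjusted p = 1), and -1.68 with the block (adjusted p = 0.0142).

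**Figure D2:**
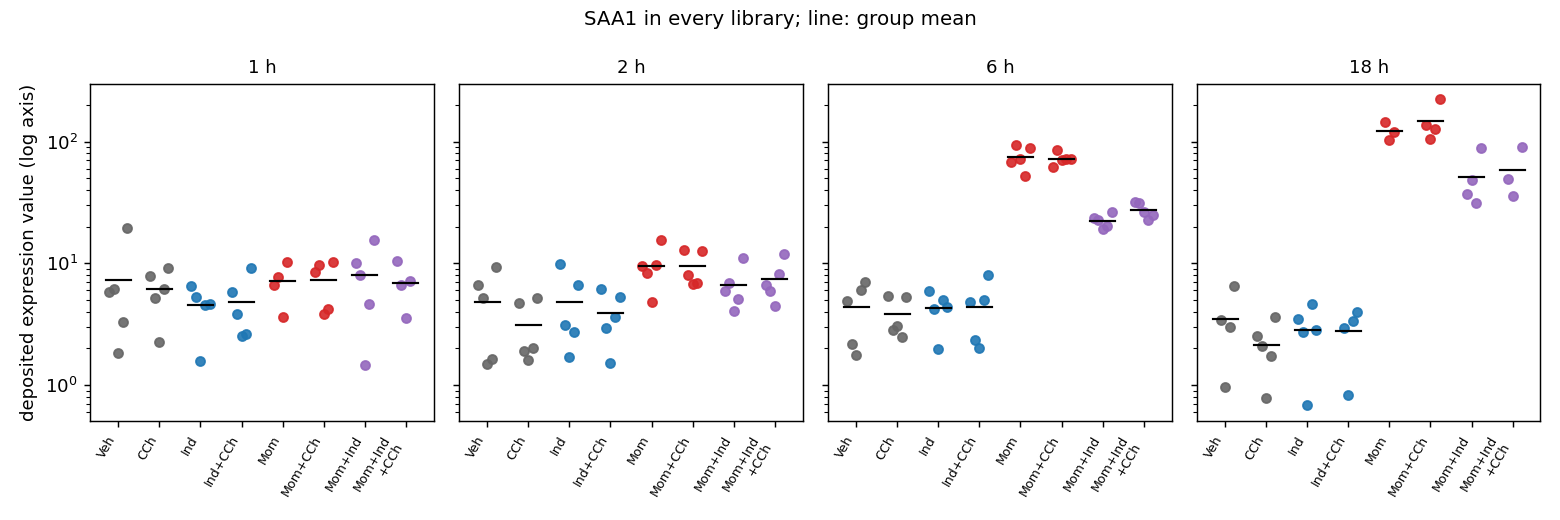
SAA1 value per library (log axis) in the 8 treatments at 1, 2, 6 and 18 h, with a line at each group's mean. Groups with mometasone separate from the rest at 6 and 18 h, and those that also had indacaterol lie between, at 19.0 to 31.8 at 6 h and 31.5 to 90.4 at 18 h.

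SAA2, the neighbouring acute phase copy, followed the same order at lower values. At 18 h vehicle read 0, 0.26, 0.63 and 0.42, and mometasone read 9.60, 3.02 and 6.57. Mometasone with indacaterol read 2.60, 1.27, 2.60 and 3.22. The vehicle libraries lay below all libraries of either treated group, while the treated groups overlapped. Mometasone raised SAA2 by 1.33 ± 0.23 at 6 h (2.52-fold, adjusted p = 3.2e-06) and by 2.39 ± 0.28 at 18 h (5.25-fold, adjusted p = 6.7e-12), and its effect was 2.62 ± 0.37 larger at 18 h than at 1 h (adjusted p = 3.8e-08). Both agents raised it by 1.35 at 18 h (adjusted p = 2.2e-05) and by 0.67 at 6 h (adjusted p = 0.0290), the latter lost without replicate 4 (adjusted p = 0.245) and with a pseudocount of 0.1 (0.0785). Both agents against mometasone alone differed by -0.66 at 6 h (adjusted p = 0.124) and by -1.04 at 18 h (adjusted p = 0.108). Group means of SAA1 were 15.4 to 37.9 times those of SAA2 in the mometasone groups at 6 and 18 h, a ratio that depends on how shared reads were divided.

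SAA4, a serum amyloid A gene with constitutive liver expression (chr11:18231349-18236893, minus strand), was listed at 0 in 138 of 150 libraries and reached 0.25 at most. The readthrough transcript SAA2-SAA4 was listed at 0 in 136 libraries and the pseudogene SAA3P in all 150. Within the cluster, the signal was therefore in SAA1 and SAA2.

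DMBT1 (chr10:122560665-122643736, plus strand) rose with each agent alone and was highest with both. At 2 h vehicle read 1.35, 3.70, 1.59, 3.61 and 0.91. Indacaterol read 32.5, 41.0, 47.8, 57.3 and 18.2, and mometasone read 11.1, 21.9, 12.9, 18.1 and 9.94. All libraries of either treatment lay above all vehicle libraries, and 1 indacaterol library, at 18.2, lay among the mometasone libraries. Mometasone with indacaterol read 55.0, 69.6, 103.7, 84.0 and 41.4, overlapping the top of the indacaterol range only. Indacaterol raised DMBT1 by 3.64 ± 0.49 on the log2 scale (12.5-fold, adjusted p = 2.3e-09), mometasone by 2.33 ± 0.49 (5.03-fold, adjusted p = 5.4e-04) and both by 4.50 ± 0.49 (22.6-fold, adjusted p = 1.3e-13). Both agents exceeded mometasone 4.50-fold (adjusted p = 9.2e-04), while the excess over indacaterol, 0.86, missed the threshold (adjusted p = 0.554). The interaction of the agents at 2 h was -1.47, a combined log2 change below the sum of the single changes. It missed the threshold by limma and passed with the replicate block (adjusted p = 0.0083).

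At 6 h DMBT1 read much the same under either agent alone. Indacaterol gave 14.3 ± 3.45 and mometasone 13.0 ± 3.75, against 1.76 ± 0.50 in vehicle (SD, n = 5 each). The log2 changes were 2.46 (5.50-fold, adjusted p = 2.9e-04) and 2.31 (4.96-fold, adjusted p = 1.9e-04). Both agents gave 33.5 ± 11.7, a change of 3.59 (12-fold, adjusted p = 1.4e-09). The steps above mometasone alone (1.28, adjusted p = 0.190) and above indacaterol (1.13, adjusted p = 0.137) missed the threshold. With each time fitted alone both steps passed (adjusted p = 0.0059 and 0.0063), the second also with only the groups compared (0.0174). The libraries with both (20.2 to 46.6) lay above all with mometasone alone (8.81 to 18.05) or indacaterol alone (11.2 to 18.6). Pooled over carbachol, the 10 libraries with both spanned 20.2 to 46.6 at 6 h, overlapping the 10 with indacaterol (9.60 to 24.1), whereas the 10 with mometasone (7.07 to 19.4) lay wholly below. At 18 h no comparison with vehicle was called. The indacaterol change there was 1.07 (adjusted p = 1), or 1.22 with the replicate block (adjusted p = 0.0037), and that of both agents was 1.11 (adjusted p = 0.207), or called with the block (adjusted p = 0.0012). With carbachol in both groups, indacaterol on top of mometasone raised DMBT1 by 1.99 at 2 h (adjusted p = 0.0032, lost without replicate 1), and at 18 h the change was 0.93 (adjusted p = 1) or 1.18 with the block (adjusted p = 0.0230).

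**Figure D3:**
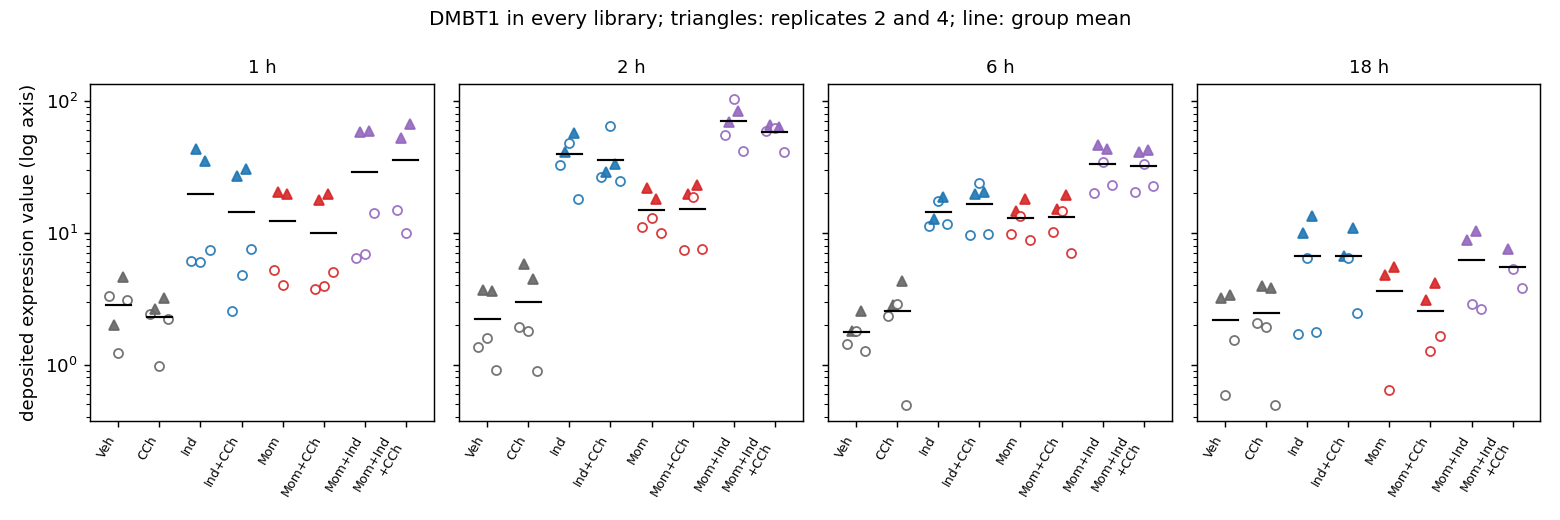
DMBT1 value per library (log axis) in the 8 treatments at 1, 2, 6 and 18 h, with a line at each group's mean and triangles for replicates 2 and 4. At 1 h the triangles stand apart in every treated group with mometasone or indacaterol, at 17.7 to 66.5, above 14.9, the highest of the other replicates.

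At 1 h DMBT1 divided by replicate number. Indacaterol read 6.14, 43.1, 6.04, 35.4 and 7.45 in replicates 1 to 5, and vehicle read 3.32, 1.99, 1.22, 4.64 and 3.08. Over all groups with either agent, the 12 libraries of replicates 2 and 4 spanned 17.7 to 66.5 (median 33.1) and the 16 of replicates 1, 3 and 5 spanned 2.57 to 14.9 (median 6.09). Without either agent the ranges overlapped, at 1.99 to 4.64 and 0.97 to 3.32. The glucocorticoid target TSC22D3 also read higher in replicates 2 and 4 of the mometasone groups (196.7 to 453.0, against 53.7 to 217.2), and the cyclic AMP target NR4A3 in those of the indacaterol groups (21.5 to 141.8, against 5.98 to 39.0). The part that these differences between replicates play in the DMBT1 values was not tested. The calls at 1 h depended on these libraries. Indacaterol raised DMBT1 by 2.00 (4.01-fold, adjusted p = 0.0072) and both agents by 2.45 (5.46-fold, adjusted p = 1.6e-04), but without replicates 2 and 4 at that time the changes were 1.15 (adjusted p = 0.971) and 1.51 (adjusted p = 0.158), in groups of at most 3 libraries. With 1 of the pair left out, the indacaterol call was lost (adjusted p = 0.429 without replicate 2 and 0.0648 without replicate 4) and that of both agents was not. Mometasone changed it by 1.57 (adjusted p = 0.345), or by 1.49 ± 0.27 with the replicate block (adjusted p = 6.4e-05).

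LCN2 (chr9:128149071-128153455, plus strand) was low in all libraries, at 2.42 or less, and rose with mometasone and indacaterol together. It was at 1 or more in 22 libraries, and 18 of these had received both mometasone and indacaterol. LCN2 passed the filter through those libraries, so its p-values for groups with both agents are a description. At 6 h vehicle read 0, 0.27, 0.19, 0 and 0.43, and mometasone read 0.27, 0.64, 0.41, 0.39 and 0.53. Mometasone with indacaterol read 1.36, 1.39, 1.07, 0.76 and 2.19. The combination lay above all libraries of vehicle and of mometasone, and overlapped indacaterol alone, whose highest library read 1.38. Both agents raised LCN2 by 0.98 ± 0.17 at 2 h (adjusted p = 2.2e-06), by 0.98 ± 0.17 at 6 h (adjusted p = 1.4e-06) and by 0.59 ± 0.19 at 18 h (adjusted p = 0.0225), the last lost without any 1 of replicates 2 to 5. Against mometasone alone the combination was higher by 0.80 at 1 h (adjusted p = 0.0022), 0.89 at 2 h (adjusted p = 4.6e-05) and 0.68 at 6 h (adjusted p = 0.0060). At 1 h, however, it was not called against vehicle (adjusted p = 0.150, or 0.0423 without replicate 1). Vehicle read 0.25 to 0.70 at 1 h, mometasone 0 to 0.32 and indacaterol 0 to 0.64, so the 1 h step starts from low values. The 6 h call was lost with a pseudocount of 0.1 (0.239), with only the groups compared (0.0677) and without replicate 1 (0.0501) or 5 (0.0663), and the 1 h call with only the groups compared (0.426) and without replicates 2 and 4 (0.0996). Mometasone alone did not pass at any time (adjusted p at least 0.325), and indacaterol alone changed LCN2 by 0.53 at 2 h (adjusted p = 0.0574, or 0.0278 with the replicate block). The interaction of the agents reached 1.04 at 1 h and missed the threshold (adjusted p = 0.0581).

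SERPINA3 (chr14:94612377-94624055, plus strand) was listed at 0 in 79 libraries and read highest with the combination of mometasone and indacaterol. It was at 1 or more in 12 libraries, 11 of which had both agents and 0 of which lacked mometasone. SERPINA3 passed the filter through those libraries, so its p-values for groups with both agents are a description. At 6 h vehicle read 0, 0, 0.06, 0 and 0, and mometasone with indacaterol read 0.75, 0.24, 0.22, 1.10 and 1.19. The difference was 0.70 ± 0.13 on the log2 scale of value + 1 (adjusted p = 7.4e-06). At 18 h the combination read 1.03, 0.61, 1.40 and 0.82, and vehicle 0, 0, 0.05 and 0.25, a difference of 0.86 ± 0.15 (adjusted p = 1.2e-06). At neither time did the groups overlap. At 2 h all vehicle libraries were listed at 0 and the combination spanned 0 to 0.62 (0.40, adjusted p = 0.0395, lost in several alternatives). Against mometasone alone the combination was higher by 0.49 at 6 h (adjusted p = 0.0131), a call lost without replicate 1 or 4 and when only the groups compared were fitted. Mometasone alone at 18 h gave 1.09, 0.23 and 0.20 (0.44, adjusted p = 0.0579). That change passed with a pseudocount of 0.1 (0.0269) and without replicate 3 (0.0281) or 5 (0.0278).

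SERPINA3 was also measured with carbachol in all groups, where indacaterol on top of mometasone raised it at 2, 6 and 18 h. At 6 h all 3 agents read 2.35, 1.54, 0.28, 1.72 and 1.5, and mometasone with carbachol read 0.08, 0.12, 0.07, 0.13 and 0.32. One library of all 3 agents, replicate 3 at 0.28, lay within the lower group's range. The difference was 1.05 (adjusted p = 2.1e-10), with 0.69 at 2 h (adjusted p = 3.3e-05) and 0.66 at 18 h (adjusted p = 0.0388). The 2 h call was lost with only the groups compared (0.10), and the 18 h call was lost in most alternatives, among them median-ratio scaling (0.0670) and leaving out replicate 1 (0.0765), 2 (0.446), 4 (0.166) or 5 (0.561). In this comparison 1, 2, 2 and 1 of the 7 genes were called higher at 1, 2, 6 and 18 h, beside 1.92%, 3.14%, 2.03% and 0.155% of all genes, and 1, SAA1 at 6 h, was called lower beside 1.36%. The interaction of mometasone and indacaterol with carbachol in all 4 groups was 0.94 ± 0.18 at 6 h (adjusted p = 0.0013), the 1 called interaction among the 7 genes, where 8.50%, 0.371%, 0.209% and 0.0337% of all genes were called at 1, 2, 6 and 18 h. That call was lost with a pseudocount of 0.1 (adjusted p = 0.557), with each time fitted alone (0.104), with only the groups compared (0.220) and without replicate 1 (0.262), 2 (0.0591) or 4 (0.115). At 2 h the same interaction was 0.64 (adjusted p = 0.137, or 0.0284 with the replicate block), and the block also called it at 2 h for DMBT1 (-1.28, adjusted p = 0.0303) and CFB (-0.50, adjusted p = 0.0322).

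**Figure D4:**
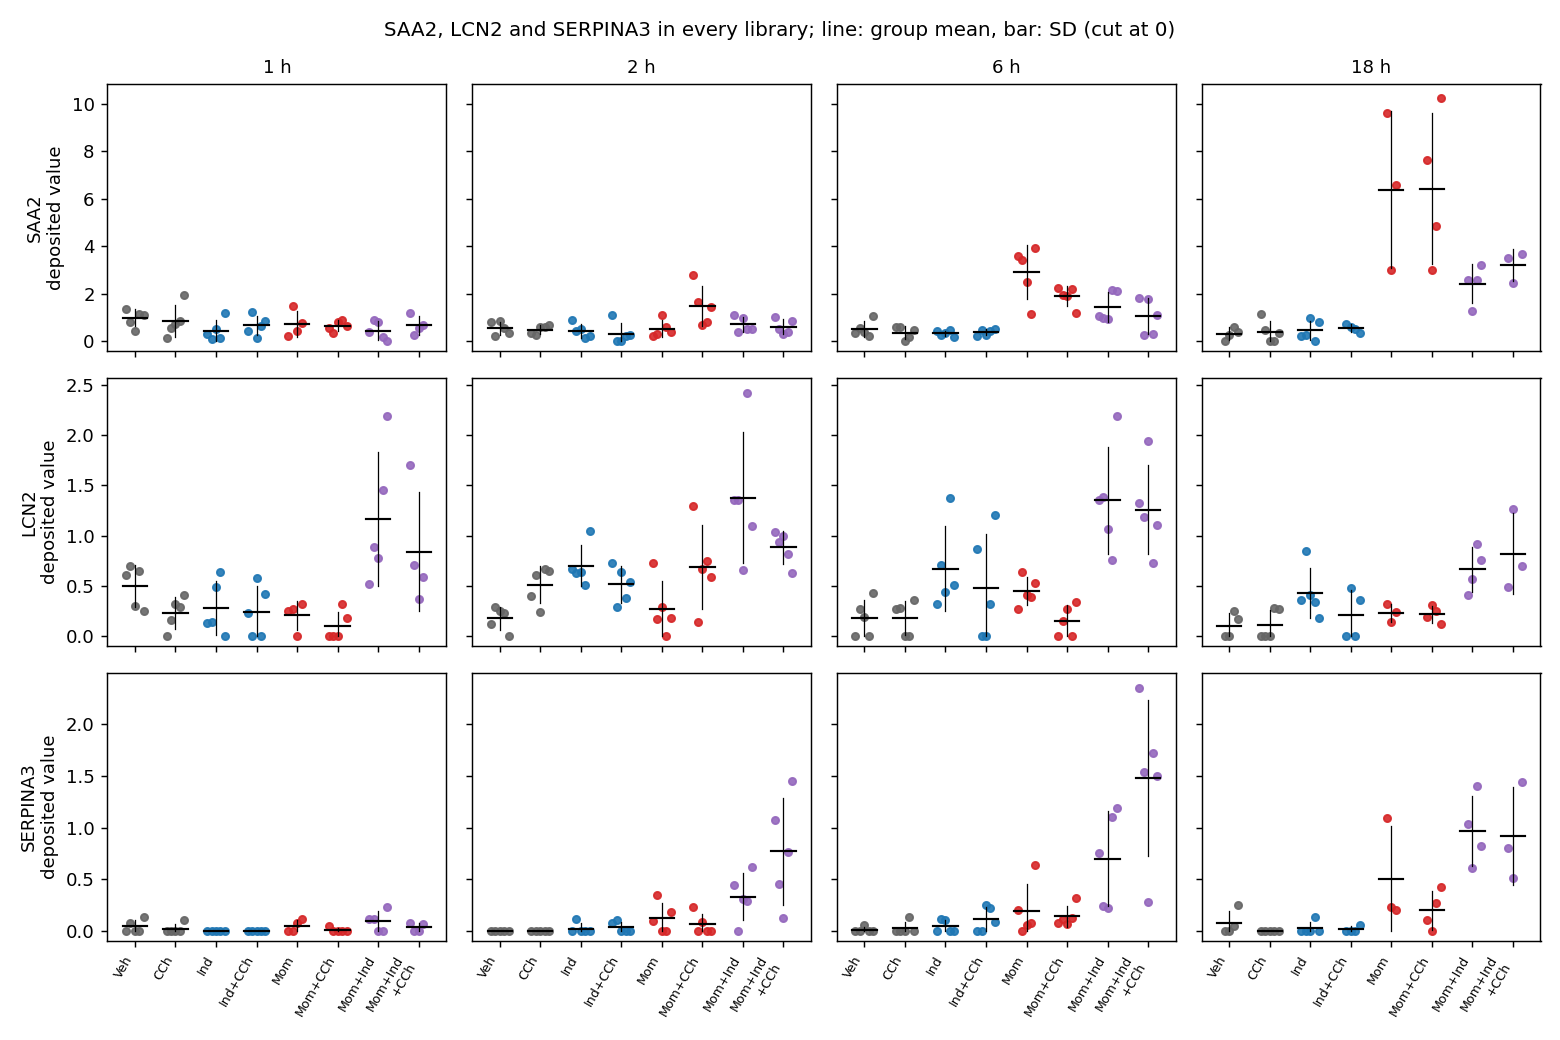
Values of SAA2, LCN2 and SERPINA3 per library (linear axis) in the 8 treatments over time, with the group mean and SD cut at 0. SAA2 is highest with mometasone at 18 h (up to 10.2), whereas LCN2 and SERPINA3 stay below 2.5 and are highest in groups with both mometasone and indacaterol.

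C3 (chr19:6677704-6730562, minus strand), the central complement component, and CFB (chr6:31945650-31952084, plus strand), the protease subunit of the alternative pathway convertase, were expressed in all libraries, differed by replicate number and were not called by treatment. C3 read 0.85 to 19.3 over the 150 libraries and CFB 11.6 to 44.0. The medians of C3 over treatments and times were 6.38, 2.55, 2.75, 2.43 and 8.38 in replicates 1 to 5. Those of CFB were 23.6, 18.7, 20.5, 17.8 and 28.9, so replicates 1 and 5 were highest for both genes. Between mometasone and vehicle C3 differed by -0.39 ± 0.55, 0.20 ± 0.52, 0.06 ± 0.52 and 0.21 ± 0.62 at 1, 2, 6 and 18 h, and CFB by -0.21 ± 0.24, 0.13 ± 0.23, 0.13 ± 0.23 and -0.09 ± 0.27. Neither gene was called in any comparison by limma, and none reached an unadjusted p below 0.05. A missed threshold does not show that treatment left them alone, and the standard errors of C3 were more than 2 times those of CFB. With replicate number as a block, C3 was higher with mometasone and indacaterol than with vehicle at 18 h (0.82 ± 0.29, adjusted p = 0.0208). For CFB the block gave 0.38 for indacaterol with carbachol against carbachol at 2 h (adjusted p = 0.0034) and -0.35 for all 3 agents against indacaterol with carbachol at 2 h (adjusted p = 0.0104).

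**Figure D5:**
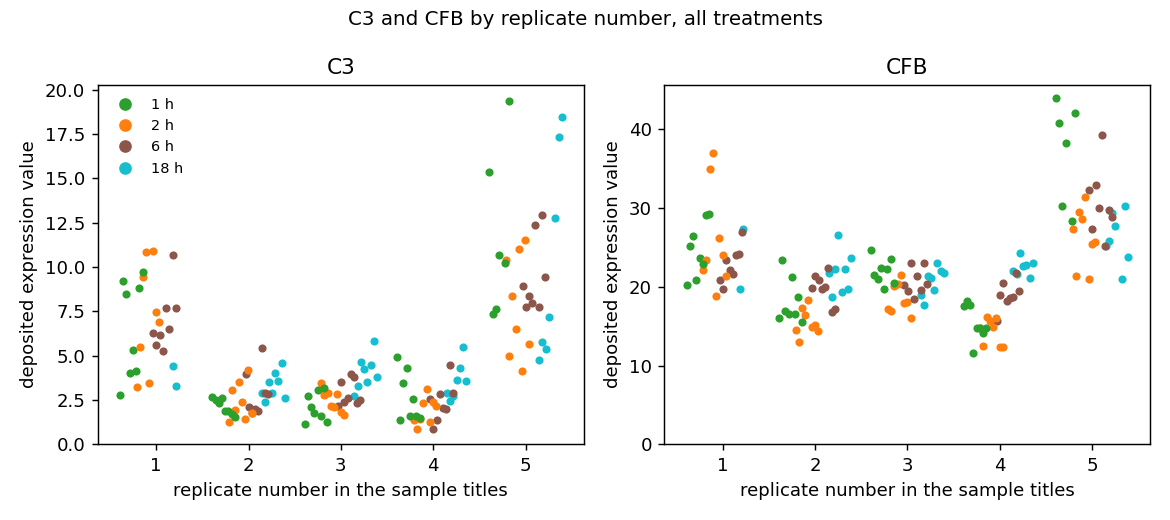
C3 and CFB values per library by replicate number, coloured by time, over all treatments. Replicates 1 and 5 lie higher, with medians of 6.38 and 8.38 for C3 against 2.43 to 2.75 in the other 3.

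SLPI (chr20:45252239-45254564, minus strand), a secreted inhibitor of neutrophil elastase, was listed at 0 in 94 libraries and reached 0.96 at most. TLR2 (chr4:153684070-153705702, plus strand), the receptor for bacterial lipopeptides, had a median of 0.26 over the 150 libraries. At 6 h TLR2 spanned 0.12 to 0.97 in the 20 libraries with mometasone and 0 to 0.82 in the 20 without. The highest TLR2 value, 1.26, was in a library without mometasone or indacaterol at 18 h, the only library at 1 or more. Both genes were too low to test, so no direction is given for them.

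The effect of mometasone was also measured on a background of carbachol and of indacaterol. Against carbachol alone, mometasone with carbachol raised 0, 2, 3 and 2 of the 7 genes at 1, 2, 6 and 18 h, beside 0.580%, 1.57%, 5.60% and 4.71% of all genes. SAA1 was among them at 2 h (1.40 ± 0.38, adjusted p = 0.0203), with libraries of 12.9, 8.05, 6.82, 6.88 and 12.6 above all carbachol libraries (1.61 to 5.23). That 2 h call was lost without replicate 1 (adjusted p = 0.103), 2 (0.245) or 4 (0.136). At 18 h SAA1 changed by 5.58 ± 0.41, or 47.7-fold (adjusted p = 8.2e-24). DMBT1 rose there by 2.05 at 2 h (adjusted p = 0.0039, lost without replicate 3) and 2.04 at 6 h (adjusted p = 0.0013).

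Against indacaterol alone, mometasone with indacaterol raised 1, 0, 4 and 3 of the 7 genes, beside 0.809%, 2.75%, 6.73% and 5.11% of all genes. At 6 h these were SAA1 (2.19, 4.55-fold, adjusted p = 2.8e-06), SAA2 (0.84, adjusted p = 0.0065), LCN2 (0.50, adjusted p = 0.0375) and SERPINA3 (0.66, adjusted p = 4.1e-05). The LCN2 call was lost in 9 alternatives, with an adjusted p of up to 0.307, among them no filter on low values and leaving out replicate 1, 2, 3 or 5, and the SAA2 call was lost without replicate 4 (0.0616) or 5 (0.0607). With carbachol in both groups the counts were 0, 1, 3 and 3, beside 3.89%, 2.59%, 5.09% and 3.82%. SERPINA3 accounted for the 2 h count (0.72, adjusted p = 1.3e-05) and was called at 6 h (1.10, adjusted p = 8.4e-12) and 18 h (0.89, adjusted p = 5.1e-06). DMBT1, which indacaterol itself raised, was not called with mometasone on top of indacaterol at any time with all times in 1 fit. At 6 h this step for DMBT1 (1.13, adjusted p = 0.137) passed with each time fitted alone (0.0063) and with only the groups compared (0.0174). With carbachol in both groups, the replicate block called that step for DMBT1 at 2 h (0.77, adjusted p = 0.756 without and 0.0345 with the block) and at 6 h (0.94, adjusted p = 0.309 and 0.0030), for SAA1 at 2 h (0.81, adjusted p = 0.422 and 0.0079) and for LCN2 at 18 h (0.59, adjusted p = 0.0545, and 0.60 with 0.0239).

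Carbachol alone changed none of the 7 genes by limma at any time, where 0.0809%, 0.0270%, 0% and 0.00674% of all genes were called at 1, 2, 6 and 18 h. At an unadjusted p below 0.05 there was 1 gene, LCN2 at 2 h. Averaged over its 4 backgrounds carbachol again called 0 of the 7 (0.189%, 0.121%, 0% and 0% of all genes), with SERPINA3 at 6 h the 1 gene at an unadjusted p below 0.05. In vehicle, 18 h against 1 h called 0 of the 7 (0.121% of all genes), with LCN2 and SAA2 at an unadjusted p below 0.05. For these comparisons too, the share of all genes at the unadjusted cut was not computed.

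Among 17 regulators of acute phase transcription 13 were tested. Mometasone against vehicle called 3 higher and 2 lower at 6 h, beside 5.37% and 4.24% of all genes, with a median log2 change of 0.11 beside 0.02 over all genes. CEBPB, a C/EBP factor of the acute phase response, rose by 3.83 at 2 h (14.2-fold, adjusted p = 1.7e-28) and 3.37 at 6 h. CEBPD rose by 1.96 at 6 h, and NFKBIA, the inhibitor of NF-kB, by 2.48 at 2 h. IL6, the cytokine that drives the hepatic acute phase response, fell by 1.48 on the log2 scale at 6 h (adjusted p = 1.6e-07). Indacaterol called 6 regulators higher and 0 lower at 2 h, beside 2.99% and 0.911% of all genes (median 0.70 beside 0.01). They included CEBPD (2.38), CEBPA (1.27), IL6 (2.84) and SOCS3 (1.84), a feedback inhibitor of STAT3 signalling. With both agents at 2 h, 4 were higher and 0 lower, beside 5.40% and 2.25% of all genes, including CEBPB (4.09) and CEBPD (3.06).

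Of 24 complement genes 17 were tested, and at 18 h mometasone with indacaterol raised 3, among them C1S (1.22) and C5 (1.09), and lowered 2, among them CD55 (-0.75), a membrane inhibitor of complement. Of all genes 6.09% were called higher and 6.89% lower there, and the list's median was 0.21 beside 0.04. Mometasone alone lowered CD55 at 6 h (-0.54, adjusted p = 0.0023), while indacaterol raised it at 2 h (0.97, adjusted p = 6.7e-09). Of 24 epithelial defence genes 5 were tested, and both agents at 6 h raised 3, beside 10.1% of all genes. These were DMBT1, LCN2 and the transmembrane mucin MUC1 (1.01, adjusted p = 4.8e-05). DMBT1 and LCN2 are among the 7 genes described above, so the count repeats them and adds only MUC1. The list's median, which includes both, was 0.98 beside 0.03. Of 20 hepatic acute phase genes 6 were tested. SERPINA3, itself 1 of the 7 genes described above, was the 1 called with both agents against vehicle at 2, 6 and 18 h. Of all genes 7.65%, 17.7% and 13.0% were called there in either direction. Of 18 Toll-like receptor and adaptor genes 12 were tested, and 3 fell with both agents at 6 h, beside 7.62% of all genes (median -0.04 beside 0.03), IRAK1 (-0.46), IRAK2 (-0.31) and TLR3 (-0.52).

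Over the means of the 32 groups, which share replicate numbers and, within a gene pair, the same libraries, the genes closest to SAA1 by Pearson correlation were ALCAM (0.974), ITGA10 (0.971) and CYP4B1 (0.968). SAA2 was closest to ITGA10 (0.953), SAA1 (0.938) and GDF7 (0.937). DMBT1 was closest to FSTL3 (0.934), FAM167A (0.918) and PLPP3 (0.917). LCN2 was closest to IGFL1 (0.847), S100P (0.836) and KRT81 (0.830), and SERPINA3 to PAPPA (0.932), IL1RL1 (0.922) and REEP4 (0.902). For C3 they were C1R (0.825), another complement gene, ZDHHC4 (0.801) and CAMLG (0.798), and for CFB C12orf57 (0.859), TPT1 (0.841) and ERGIC3 (0.818). Between the genes described, LCN2 and DMBT1 correlated at 0.704, while SAA1 and DMBT1 correlated at 0.00799.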

How the data were processed

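RNA sequencing of BEAS-2B cells gave 1 deposited value per gene and library. Tools per the submitters' processing notes were bcl2fastq 2.17.1.14 and STAR 2.4.2a with GRCh38. Not given in the sources used here are the quantifier, annotation, strand use and scaling. The authors call the values TPM, but column sums differ (median 961146), so they were treated as a normalised signal deposited by the authors, not as counts. The design had assumed TPM, and the log-scale test fits both. Scaling by the median ratio (0.919 to 1.14) moved the median of all genes by at most 0.04 on the log2 scale.

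Groups came from the labels. Of 160 samples 10 columns were not used: 4 that the authors mark as excluded, and 6 headed 8 h, a time no label gives.

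Genes at 1 or more in at least 5 libraries were kept (14827; 14446 left out). The log2(value + 1) values went into limma 3.58.1 (R 4.3.3), in 1 model of 32 groups (118 residual degrees of freedom, eBayes, trend), with p-values adjusted by Benjamini-Hochberg within each comparison and time. The script was tested on simulated data. All 10 members are named, with the 3 genes most correlated with each tested member, and from each list up to 4 called genes with the largest change. Not every gene the list rule takes is printed. The members and lists were chosen with earlier results of these data known.

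Replicate numbers, from the titles, were counted as pairs where at least 3 pairs existed and every same-numbered pair deviated together (correlation over 0.1). This held in 26 of 49 comparisons and times, with correlations of 0.11 to 0.865. The main fit still had no pairs or block, so its p-values are unpaired throughout, and the block is an alternative. A missed threshold in those 26 therefore comes from an unpaired test. Alternatives were another pseudocount, no filter, each time fitted alone, only the groups compared, median-ratio scaling, the replicate block, each replicate left out and libraries over 20% mitochondrial left out. Comparisons with carbachol in both groups, and replicates 2 and 4 left out at 1 h, were added after seeing the data. Sequences came from RefSeq (GRCh38.p14) and GENCODE 29.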

Additional observations from a re-analysis of the deposited data

Results flagged for a closer look

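In groups of 4 or 5 libraries with a median of at least 1, 1 library stood apart from the others in 13 of 132 groups and genes. The cut-off used flags about 1 in 20 when values are normally distributed and independent. The same replicate numbers recur across these groups, so the 13 are not compared with that rate. C3 accounted for 7 of them. Replicate 5 was the high library of C3 in vehicle at 1 h (15.4, the others 1.12 to 4.91), 2 h (10.4, the others 1.28 to 3.44) and 18 h (4.73, the others 2.72 to 2.90), in mometasone at 2 h (11), in mometasone with indacaterol at 18 h (17.3) and in indacaterol with carbachol at 1 h (10.7). Replicate 1 was the high C3 library in all 3 agents at 1 h (9.73). CFB stood apart in replicate 5 at 6 h in mometasone (39.3, the others 18.6 to 21.7), indacaterol (33.0) and carbachol (27.3). SAA1 read 19.4 in replicate 5 of vehicle at 1 h, the others 1.82 to 6.19. DMBT1 read 64.2 in replicate 3 of indacaterol with carbachol at 2 h, above 24.8 to 33.5 in the others, and 41.2 in replicate 5 of all 3 agents at 2 h, below 59.6 to 65.5.

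Differences between groups under the same contrast passed the test of the difference for 3 genes. The interaction of mometasone and indacaterol with carbachol in all 4 groups was 0.94 for SERPINA3 at 6 h. The mometasone effect at 18 h exceeded that at 1 h by 4.69 for SAA1 and by 2.62 for SAA2.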

How the results depend on the processing

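Of the 63 calls of single genes, 0 reversed under any alternative run. Calls lost were 17 with only the groups compared, 9 of 61 with each time fitted alone, 7 with a pseudocount of 0.1, 2 with median-ratio scaling, 2 without the libraries over 20% mitochondrial, 1 with no filter and 4 to 11 with a replicate left out. Of 8 calls that rest on 1 h libraries, 6 were lost without replicates 2 and 4 at 1 h, and these 6 were all the calls within 1 h. The 2 kept were SAA1 and SAA2 for the mometasone effect at 18 h against that at 1 h. Of the 7 genes, the number called at any time for indacaterol against vehicle was 1, and 2 with only the groups compared or with the replicate block. The interaction called 0, and 1 (SAA1) with each time fitted alone and 3 (DMBT1, LCN2, SAA1) with the replicate block. With the replicate left out in turn the counts ran from 3 to 4 for mometasone against vehicle, for both agents against indacaterol or against mometasone, and for all 3 agents against indacaterol with carbachol. They stayed at 5 for both agents against vehicle, 3 for mometasone with carbachol against carbachol, 2 for 18 h against 1 h, 1 for indacaterol against vehicle and 0 for carbachol against vehicle or averaged over backgrounds, the interaction without carbachol and vehicle over time. The comparisons with carbachol in both groups that were added later entered only the losses of single calls above. For SAA1 at 6 h the block gave an interaction of -1.73 (adjusted p = 1.5e-04) and, with carbachol in all 4 groups, -1.48 (adjusted p = 0.0026), at a time when the numbers were not taken as pairs. The replicate block added 14 calls in paired comparisons and lost 0, and added 19 in comparisons not taken as paired. The cause of these changes was not tested. Depth is unknown, and it may limit LCN2, SERPINA3 and SAA2 most.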
